A study of Mus musculus with 9 samples.

Results

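Of the 8 genes named for the incretin and calcium hormone receptors (*Glp1r*, *Glp2r*, *Gipr*, *Gcgr*, *Dpp4*, *Calcr*, *Calcrl* and *Pth1r*), all 8 were found by symbol among the 18272 genes of the expression table, and 5 of them had enough counts to be tested (10 or more in 3 or more of the 9 libraries). RNA came from tibias of 3 NGT, 3 T1D and 3 Lira mice, chosen at random from groups to which 8 mice each had been assigned, which were female C57BL/6J mice bought at 10 to 11 weeks of age. NGT mice had normal glucose tolerance after vehicle injection, whereas diabetes in the T1D and Lira groups came from a single injection of streptozotocin (STZ), a beta-cell toxin. NGT and T1D mice were given saline by their labels. Lira mice received liraglutide, an agonist of the receptor encoded by *Glp1r*, at 0.6 mg/kg/day, for 8 weeks by the study's methods and by 2 of the labels and for 9 weeks by the label of Lira mouse 3. STZ diabetes stands here for type 1 diabetes without its autoimmune part, and the tibia holds bone, marrow, vessels and nerve.

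The receptors belong to class B of the G protein-coupled receptors, which bind peptide hormones and raise cyclic AMP through the stimulatory G protein. GLP-1 and GIP are the gut's incretin hormones, which raise insulin secretion after a meal, and both are cut and inactivated by the peptidase that *Dpp4* encodes. Calcitonin restrains osteoclasts through the receptor of *Calcr*, while parathyroid hormone and its relative PTHrP act on osteoblasts, osteocytes and chondrocytes through the receptor of *Pth1r*. The protein of *Calcrl* binds CGRP or adrenomedullin, depending on the RAMP protein beside it, and is abundant in vessel walls.

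The promoters of 2 of these genes are shown because of what was measured for their transcripts. *Glp1r* was next to undetected, and *Calcrl* was the receptor whose T1D mice stood apart. Each sequence is the 250 bases before the RefSeq start site (build GRCm38.p6), and capitals mark every CG pair.
Glp1r, chr17:30901617-30901866, plus strand: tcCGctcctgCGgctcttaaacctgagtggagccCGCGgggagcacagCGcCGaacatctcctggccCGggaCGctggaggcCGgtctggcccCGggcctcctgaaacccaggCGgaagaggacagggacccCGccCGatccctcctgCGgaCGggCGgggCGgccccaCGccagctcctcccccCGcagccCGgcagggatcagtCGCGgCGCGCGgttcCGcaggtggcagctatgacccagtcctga
Calcrl, chr2:84425267-84425516, minus strand: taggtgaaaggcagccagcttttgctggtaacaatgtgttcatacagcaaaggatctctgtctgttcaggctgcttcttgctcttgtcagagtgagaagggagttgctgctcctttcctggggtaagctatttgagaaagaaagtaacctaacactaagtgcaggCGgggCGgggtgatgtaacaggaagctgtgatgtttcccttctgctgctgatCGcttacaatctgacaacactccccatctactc
The *Glp1r* window held 26 CG pairs and the *Calcrl* window 3, against a median of 6 over 32851 promoter windows of this length. At least 26 were found in 9.59% of these windows and at least 3 in 71.0%. The letters TGACG, which are the core of the cyclic AMP response element and were searched on both strands, were in neither window and in 17.8% of all windows. The data measured transcripts only and do not show what these promoters do.

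Each library held between 13086373 and 16528394 counts. Levels are given as CPM (counts per 1e6, scaled by edgeR's TMM method) for comparing mice and as FPKM, which also corrects for gene length, for comparing genes. Where a library had 0 counts of a gene, the limit was taken as 3 counts, which stand for 0.163 to 0.237 CPM. Such limits and the interval given for *Glp1r* cover counting error only. All 9 osteoblast markers and all 7 osteocyte markers had counts, as did markers of muscle and marrow, though not in every library. NGT mouse 2 had no count of 2 osteoblast and 2 osteocyte markers. The 9 neutrophil markers summed to 3.87 CPM in NGT, 52.9 CPM in T1D and 110 CPM in Lira mouse 2, the lowest of each group. Their highest sum was 5089 CPM in Lira mouse 3. The part of this marrow difference in the member levels was not tested. The 16 skeletal muscle markers summed to between 98300 CPM (T1D mouse 1) and 263600 CPM (NGT mouse 3) although muscle had been cleaned off the bones. They were lowest in T1D mouse 1, NGT mouse 1 (129700 CPM) and Lira mouse 3 (141500 CPM), 1 mouse of each group. In bulk tissue, fewer cells of a type and less RNA per cell cannot be told apart.

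By FPKM, *Calcrl*, *Pth1r* and *Dpp4* were the 3 highest members in every library. Averaged over 9 libraries, *Pth1r* had 4.63 FPKM (0.91 to 17.3), *Calcrl* 4.08 FPKM (2.74 to 6.00) and *Dpp4* 2.32 FPKM (1.09 to 4.63). *Calcrl* was the highest in 6 libraries and *Pth1r* in 3, the same 3 that had the least muscle RNA. The other members stayed at or below 0.50 FPKM in each library. *Gipr* averaged 0.320 FPKM, *Calcr* 0.200 FPKM, *Glp2r* and *Gcgr* 0.0867 FPKM each, and *Glp1r* 0.00556 FPKM. The ranges of *Calcrl* and *Pth1r* overlapped, as did those of *Glp2r* and *Gcgr*. Of all genes, 58.7% were at or below the mean FPKM of *Pth1r*, and 2.5% at or below that of *Glp1r*.

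**Figure D1:**
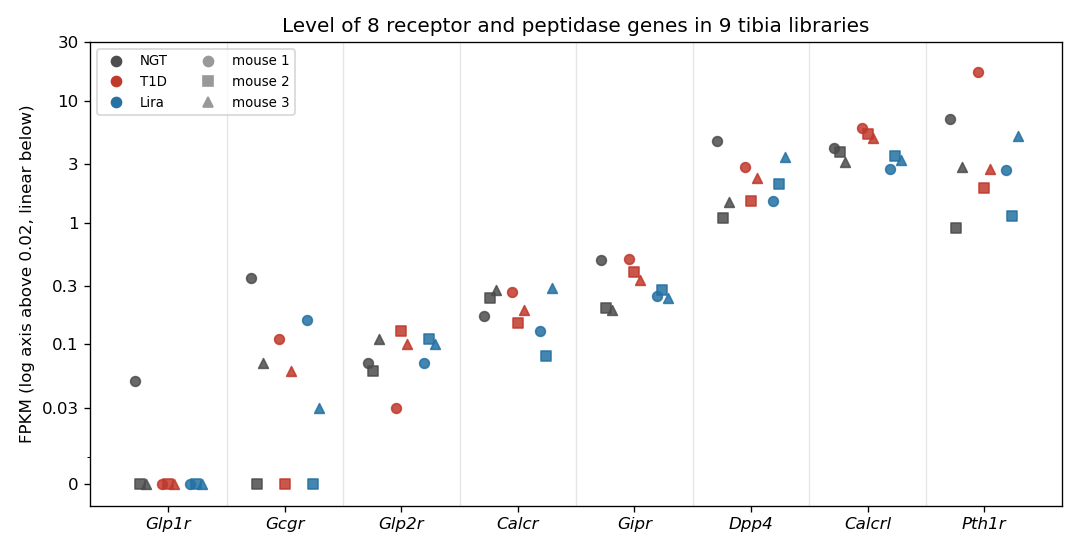
Level of each of the 8 genes in FPKM (vertical axis, logarithmic above 0.02 and linear below), with 1 point per library, colours for the groups and symbols for the mouse numbers. *Glp1r* lies at 0 in 8 of 9 libraries, and *Calcrl*, *Pth1r* and *Dpp4* lie above 0.9 FPKM in all 9.

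*Glp1r* (gene number 14652), the target of liraglutide, had 1 count in NGT mouse 1 and 0 counts in the other 8 libraries. Over 133504868 counts in all, this is 0.00749 counts per 1e6, with an exact 95% Poisson interval of 0.000190 to 0.0417. That count was worth 0.05 FPKM in NGT mouse 1, so that 3 counts stand for 0.15 FPKM. No T1D or Lira mouse had a count, and a difference between the groups was not detectable at this depth. *Gcg*, whose product is cut into both glucagon and GLP-1, also had 1 count in 9 libraries.

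*Gcgr* (14527), the glucagon receptor of the liver, had 9, 0 and 2 counts in NGT mice, 3, 0 and 2 in T1D mice and 4, 0 and 1 in Lira mice. Its 21 counts were thus spread over 6 libraries, and the mice numbered 2 had none in any group. *Glp2r* (93896), the receptor of the gut growth factor GLP-2, was counted in every library at 2 to 8 counts. NGT mice had 4, 4 and 7 counts, T1D mice 2, 8 and 8, and Lira mice 5, 7 and 7. The 3 groups overlapped, with *Glp2r* at 0.373 ± 0.160 CPM (SD, n = 3) in NGT, 0.389 ± 0.243 CPM (SD, n = 3) in T1D and 0.435 ± 0.0983 CPM (SD, n = 3) in Lira mice. Exact permutation tests on log2(CPM + 1) gave p = 1.0 for T1D against NGT and p = 0.8 for Lira against T1D mice, where 3 mice against 3 allow no p under 0.1. *Glp1r*, *Gcgr* and *Glp2r* were below the count filter and entered no test across genes.

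*Gipr* (381853), the receptor of GIP and the incretin receptor with the most counts, was at 1.84, 1.00 and 0.950 CPM in the NGT mice, at 1.85, 1.83 and 1.73 CPM in T1D mice and at 1.28, 1.48 and 0.976 CPM in Lira mice. Every T1D mouse was above every Lira mouse, while NGT mouse 1 reached the T1D level. For mice of the same number, T1D minus NGT on the log2(CPM + 1) scale was 0.00404, 0.499 and 0.488. The log2 fold change was 0.50 (SE 0.39) for T1D against NGT mice and -0.53 (SE 0.39) for Lira against T1D mice (edgeR's quasi-likelihood test, adjusted p = 0.977 and 0.978, unadjusted p = 0.226 and 0.202). Without NGT mouse 1 the former was 0.88 (unadjusted p = 0.0564 in edgeR's test). Among the 13960 genes tested, 3.4% had every Lira mouse below every T1D mouse. *Gipr* rested on 12.2 to 33.8 counts per library. The 3 T1D libraries had a mean of 29.1 counts with an SD of 4.13, below the 5.40 that counting alone gives. Its counts were not whole in 8 of 9 libraries, as were those of *Dpp4* and *Calcrl* in all 9, which happens when a counter divides reads between genes, so these levels carry that uncertainty.

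*Dpp4* (13482), known as CD26 on T cells and also made by fibroblasts and epithelia, did not separate the groups. NGT mice were at 17.8, 5.88 and 8.00 CPM, T1D mice at 11.5, 6.35 and 11.7 CPM and Lira mice at 7.35, 11.1 and 14.1 CPM. The highest mouse was NGT mouse 1, 2.23 times the next of its group. The fold change was -0.11 on the log2 scale (SE 0.45) for T1D against NGT and 0.15 (SE 0.45) for Lira against T1D mice, with adjusted p = 0.991 and 0.987 (edgeR's quasi-likelihood test). Without NGT mouse 1 the difference between T1D and NGT mice turned to 0.51 (adjusted p = 0.627 in edgeR's test), and without T1D mouse 2 to 0.11. It was also above 0 from FPKM values, at 0.12 on log2(FPKM + 0.1) and 0.043 on log2(FPKM + 1). Lira against T1D mice turned to -0.092 without T1D mouse 2 and to -0.094 without Lira mouse 3. The 8 T and NK cell markers summed to 1.16 to 13.2 CPM in NGT, 4.32 to 20.9 CPM in T1D and 2.02 to 30.2 CPM in Lira mice and were highest in each group in the mouse with the least muscle RNA. *Cd3e*, which defines the T cells among them and is outside the naming rule, was at 0.503 CPM on average and counted in 8 of 9 libraries. The part of these cells in the *Dpp4* level was not tested.

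Relatives and partners of DPP4 formed a list of 12 genes, 11 of them tested. The 3 with the highest CPM were *Cav1*, a caveolar protein that binds DPP4 (222 CPM on average), the cytosolic peptidase *Dpp8* (199 CPM) and the chemokine *Cxcl12* (143 CPM), a substrate of DPP4. In T1D against NGT mice 4 were higher and 7 lower with a median log2 fold change of -0.14, against 0.02 over all tested genes, and 0 passed the test. At an unadjusted p under 0.05 (edgeR's quasi-likelihood test) there was 1 in each direction, where 3.95% of all genes reached it. These were *Mme* (neprilysin, which also degrades peptide hormones) at a log2 fold change of 0.99 and *Dpp9* at -0.59, both named after their values were seen. In Lira against T1D mice 6 were higher and 5 lower (median 0.14, against 0.04 over all tested genes), 0 passed, and 4 reached an unadjusted p under 0.05, namely *Dpp9* (0.53) and *Prep* (0.39) upward and *Mme* (-0.86) and *Fap* (-1.29) downward, where 3.33% of all genes reached it. *Prep* and *Fap* too were named after their values were seen. Both comparisons use the same T1D mice.

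*Calcr* (12311), the calcitonin receptor and an osteoclast marker, was near the limit of what could be tested, with 4 to 16 counts per library. NGT mice were at 0.508, 0.928 and 1.11 CPM, T1D mice at 0.761, 0.524 and 0.800 CPM and Lira mice at 0.4996, 0.312 and 0.918 CPM, so that all groups overlapped. The log2 fold change was -0.28 (SE 0.53) for T1D against NGT, -0.25 (SE 0.54) for Lira against T1D and -0.53 (SE 0.54) for Lira against NGT mice, with adjusted p-values of 0.986, 0.981 and 0.999 (edgeR's quasi-likelihood test). Single mice moved these values. Without Lira mouse 2 the difference between Lira and T1D mice was 0.036, and without Lira mouse 3 it was -0.77. T1D against NGT went to -0.54 without NGT mouse 1 and to -0.038 without NGT mouse 3, and Lira against NGT to -1.04 without Lira mouse 3 and to -0.24 without Lira mouse 2. Of 8 osteoclast markers tested, 7 were higher in T1D than NGT mice and 7 lower in Lira than T1D mice, and 0 were DEGs. An unadjusted p under 0.05 (edgeR's quasi-likelihood test) was reached by 2 and 1 of them, where 3.95% and 3.33% of all genes had this. All 9 markers summed to 87.6 to 200 CPM in NGT, 157 to 423 CPM in T1D and 114 to 328 CPM in Lira mice. *Nfatc1*, the single tested marker with the opposite direction in both comparisons, averaged 70.94 CPM in NGT, 66.71 CPM in T1D and 79.57 CPM in Lira mice. It made up a large part of the NGT sum and changed little between groups. Neither the sum nor a share of it can therefore be read as a measure of osteoclasts. *Calcr* itself amounted to 0.759% of this sum on average in NGT, 0.249% in T1D and 0.271% in Lira mice (exact permutation test, p = 0.2 for T1D against NGT and p = 0.7 for Lira against T1D mice).

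*Calcrl* (54598) was the member in which T1D mice stood apart from both other groups. NGT mice were at 16.2, 20.1 and 17.1 CPM, T1D mice at 23.1, 25.9 and 25.9 CPM and Lira mice at 14.3, 18.6 and 13.8 CPM. Each T1D mouse was above each NGT and each Lira mouse, and NGT and Lira mice overlapped. The means were 17.8 ± 2.03 CPM (SD, n = 3) in NGT, 24.9 ± 1.60 CPM (SD, n = 3) in T1D and 15.6 ± 2.64 CPM (SD, n = 3) in Lira mice. The log2 fold change was 0.49 (SE 0.17) for T1D against NGT mice, a 1.40-fold higher level, and -0.68 (SE 0.17) for Lira against T1D mice. *Calcrl* did not pass the DEG thresholds of a fold change over 2 and an adjusted p-value under 0.05, as the fold changes were below 2 and the adjusted p-values were 0.977 and 0.978 (edgeR's quasi-likelihood test). Its unadjusted p-values were 0.0216 and 0.00388 in the same test, the 206th and the 3rd lowest of 13960 genes. The lowest adjusted p-values of any gene in these comparisons were 0.977 and 0.978, so the ranks do not set *Calcrl* apart. Between Lira and NGT mice the log2 fold change was -0.19 (SE 0.17, adjusted p = 0.999 in edgeR's test), and with 1 mouse left out it lay between -0.34 (without Lira mouse 2) and -0.099 (without NGT mouse 2).

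Of the 5 members tested, 0 passed the DEG thresholds in any of the 3 comparisons, and the same held for 0.0% of all genes in each. *Calcrl* was the single member with an unadjusted p under 0.05, in T1D against NGT and in Lira against T1D mice, where 3.95% and 3.33% of all genes had this (edgeR's quasi-likelihood test), 2.36% being higher in T1D than NGT mice and 1.78% lower in Lira than T1D mice. For T1D against NGT mice this background of 552 genes moved with the fit, to 752 with the replicate number as a block, to 1931 with the block in only these 2 groups, and to between 224 (without NGT mouse 2) and 1007 (without NGT mouse 1) with 1 mouse left out. For Lira against T1D mice the 465 genes became 254 without Lira mouse 1 and 737 without Lira mouse 3, and for Lira against NGT mice the 109 became 59 without NGT mouse 3 and 446 without Lira mouse 2. In the 2 block fits (edgeR) the unadjusted p of *Calcrl* was 0.0175 and 0.0146 for T1D against NGT and 0.00339 and 0.0204 for Lira against T1D mice. The members whose groups did not overlap were *Calcrl* in T1D against NGT mice, where 8.6% of all genes did the same and 3.52% in this direction, and *Calcrl* and *Gipr* in Lira against T1D mice, where 7.13% did and 3.4% in this direction. Between Lira and NGT mice 0 members had an unadjusted p under 0.05 or groups without overlap, against 0.781% and 4.27% of all genes. Every T1D mouse was above every NGT and Lira mouse in 0.989% of the genes. For *Calcrl* the exact permutation p was 0.1 in both comparisons, the smallest that 3 mice against 3 allow. With 1 mouse of the compared groups left out at a time, the log2 fold change ranged from 0.43 to 0.58 in T1D against NGT and from -0.83 to -0.60 in Lira against T1D mice. In T1D against NGT mice the unadjusted p rose to 0.0665 without NGT mouse 1, 0.0629 without NGT mouse 3, 0.0517 without T1D mouse 2 and 0.0574 without T1D mouse 3.

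**Figure D2:**
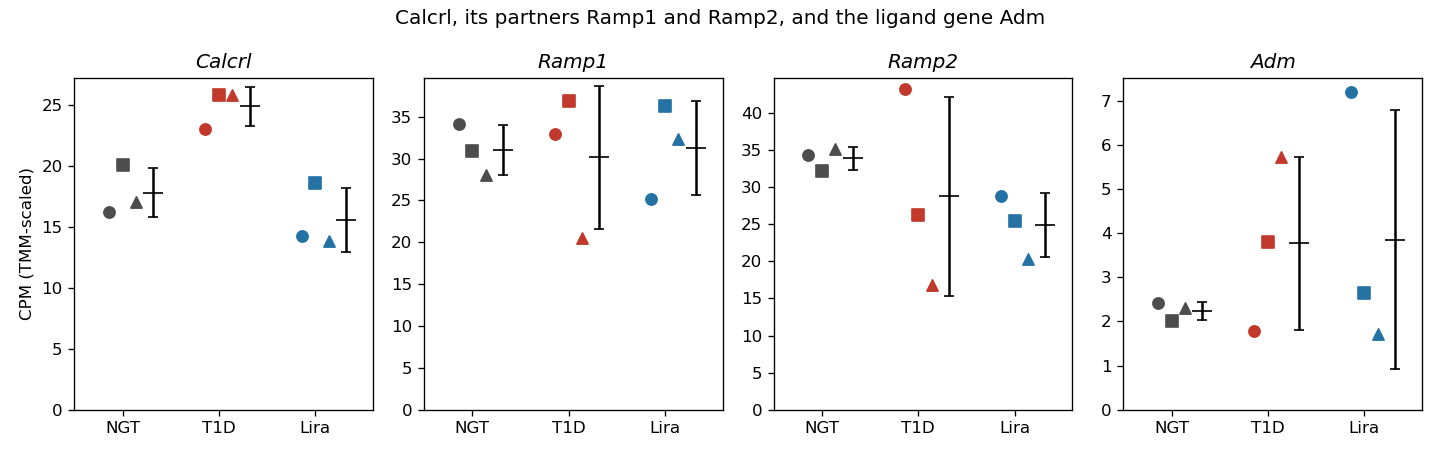
CPM of *Calcrl*, of the RAMP genes *Ramp1* and *Ramp2* and of *Adm* by group, with 1 point per mouse and a bar for the mean and SD of 3 mice. *Calcrl* is above 23 CPM in the 3 T1D mice and below 21 CPM in the other 6, while the points of the other genes overlap between T1D mice and both other groups.

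In the partners of *Calcrl*, T1D mice overlapped with both other groups. *Ramp1*, which makes it a CGRP receptor, was at 31.0 ± 3.03 CPM (SD, n = 3) in NGT, 30.1 ± 8.55 CPM (SD, n = 3) in T1D and 31.3 ± 5.62 CPM (SD, n = 3) in Lira mice. *Ramp2*, which makes it an adrenomedullin receptor, was at 34.3, 32.2 and 35.2 CPM in NGT mice, 43.3, 26.3 and 16.8 CPM in T1D mice and 28.9, 25.5 and 20.3 CPM in Lira mice. All Lira mice were thus below all NGT mice in *Ramp2*, and the T1D mice spanned both groups. Lira and NGT mice did not overlap in 4.27% of all genes, and the edgeR test of *Ramp2* gave an unadjusted p of 0.185. *Ramp3* was low, at 0.603 CPM on average, and *Crcp*, encoding an intracellular component of the CGRP receptor, was at 17.9 CPM. In T1D against NGT mice the 4 genes had log2 fold changes between -0.23 and -0.04 (unadjusted p from 0.467 to 0.866 in edgeR's quasi-likelihood test), and 0 of 4 reached an unadjusted p under 0.05 in any comparison.

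Of the ligand genes, *Adm* (adrenomedullin) and *Pthlh* (PTHrP) were tested. *Adm* was at 2.24 ± 0.206 CPM (SD, n = 3) in NGT, 3.78 ± 1.97 CPM (SD, n = 3) in T1D and 3.86 ± 2.94 CPM (SD, n = 3) in Lira mice, with a log2 fold change of 0.75 for T1D against NGT mice (edgeR, unadjusted p = 0.240). *Calca*, the gene of both calcitonin and CGRP, had counts in 7 libraries but at most 4.04 of them, *Calcb* had 1 count in all, and *Adm2* was counted in 3 libraries. *Gip*, *Iapp*, *Pth* and *Pth2* were not analysed here. The hormones are made largely in gut, pancreas, thyroid and parathyroid, so their levels in blood are not seen in tibia RNA.

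Endothelial markers were measured beside *Calcrl* because vessels are a main site of the receptor. All 10 had counts in each library and summed to 399 to 594 CPM in NGT, 413 to 494 CPM in T1D and 427 to 661 CPM in Lira mice. In T1D against NGT mice 2 of the 10 were higher and 8 lower (median log2 fold change -0.13), and in Lira against T1D mice 8 were higher and 2 lower (0.21), with 0 at an unadjusted p under 0.05 in either (edgeR's quasi-likelihood test). As a share of this sum, *Calcrl* was 2.73%, 3.53% and 4.28% in NGT mice, 5.60%, 5.24% and 5.71% in T1D mice and 2.70%, 2.82% and 3.24% in Lira mice. T1D mice again stood above all others, at 1.57 times the NGT mean (exact permutation test, p = 0.1, the smallest possible). Other marker lists had the direction of *Calcrl* in every gene tested. These were fibroblasts (7 genes), macrophages (8), adipocytes (6), Schwann cells (6) and osteoblasts (9), each higher in the T1D group than in NGT mice and lower in Lira than in T1D mice. DEGs numbered 0 in each list. An unadjusted p under 0.05 (edgeR) was reached in T1D against NGT mice by 5 macrophage genes, 1 fibroblast, 1 Schwann cell, 1 osteoblast and 0 adipocyte genes, and in Lira against T1D mice by 1, 2, 2, 0 and 0 in the same order, where 3.95% and 3.33% of all genes had this. Fibroblast sums were 609 to 1220 CPM in NGT, 788 to 3406 CPM in T1D and 595 to 880 CPM in Lira mice, and macrophage sums were 32.1 to 127, 82.1 to 803 and 80.7 to 160 CPM in the same order. Single mice held the highest of these sums, with T1D mouse 1 at 3406 CPM for fibroblasts and 803 CPM for macrophages against at most 974 and 122 CPM in the other T1D mice, and T1D mouse 2 at 1018 CPM for Schwann cells against at most 173 CPM. T1D mouse 1 had the lowest *Calcrl* of its group, at 23.1 CPM. The part of these cells in the *Calcrl* level was not tested.

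*Pth1r* (19228) had the widest spread of the tested members. NGT mice were at 12.6, 2.09 and 6.89 CPM, T1D mice at 30.1, 4.12 and 6.47 CPM and Lira mice at 6.50, 2.57 and 9.82 CPM. T1D mouse 1 was 4.66 times the next T1D mouse, and the other T1D mice lay within the NGT range. The log2 fold change was 0.91 (SE 0.87) for T1D against NGT and -1.11 (SE 0.88) for Lira against T1D mice (edgeR's quasi-likelihood test, adjusted p = 0.979 and 0.978). Without T1D mouse 1 both directions turned, to -0.45 and 0.25, with adjusted p-values of 1.0 and 0.998 in edgeR's test. For mice of the same number, T1D minus NGT on the log2(CPM + 1) scale was 1.19, 0.73 and -0.08.

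**Figure D3:**
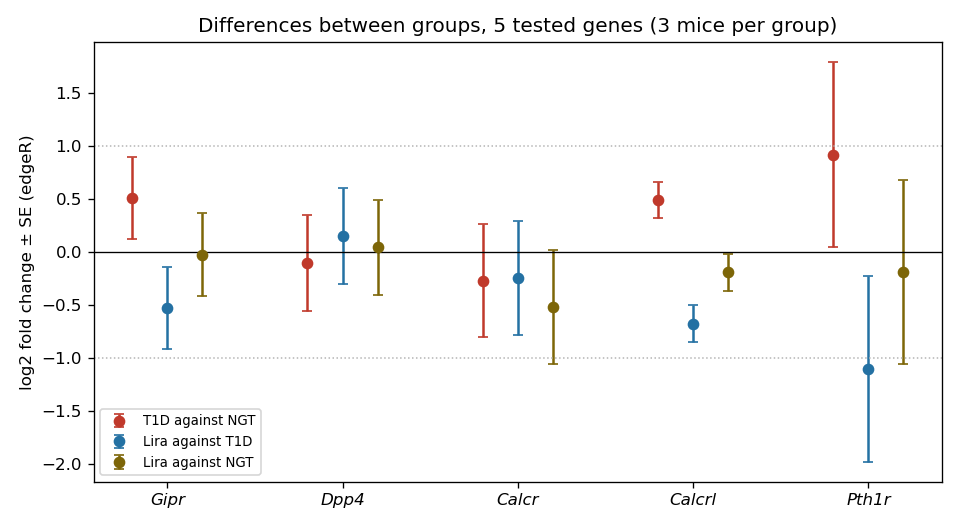
Log2 fold change with its standard error (edgeR, vertical axis) of the 5 tested genes in the 3 comparisons, with dotted lines at a fold change of 2. The bars of *Calcrl* are the narrowest (SE 0.17) and those of *Pth1r* the widest (SE 0.87 to 0.88).

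The osteoblast markers varied between mice along with *Pth1r*. The 9 genes summed to 1456, 210 and 1355 CPM in NGT mice, 5836, 808 and 968 CPM in T1D mice and 952, 428 and 1388 CPM in Lira mice, so that T1D mouse 1 was the highest and NGT mouse 2 the lowest in both measures. All 9 markers were higher in the T1D than the NGT group (median log2 fold change 1.14) and lower in Lira than in T1D mice (-1.22), against medians of 0.02 and 0.04 over all tested genes. An unadjusted p under 0.05 in edgeR's test was found for 1 and 0 of the 9, where 3.95% and 3.33% of all genes had it. *Pth1r* amounted to 0.790% of the osteoblast sum in NGT, 0.565% in T1D and 0.663% in Lira mice, and these shares did not separate the groups (exact permutation test, p = 0.4 for T1D against NGT and p = 0.2 for Lira against T1D mice). The genes closest to *Pth1r* across the 9 libraries, among 10413 genes of at least 5 CPM, were *Iah1* (Pearson r = 0.961 of log2 CPM), *Col1a1* (r = 0.960) and *Col1a2* (r = 0.959), the latter being the chains of type I collagen. All genes shared the same 9 libraries and their muscle content, and these likenesses are descriptions.

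**Figure D4:**
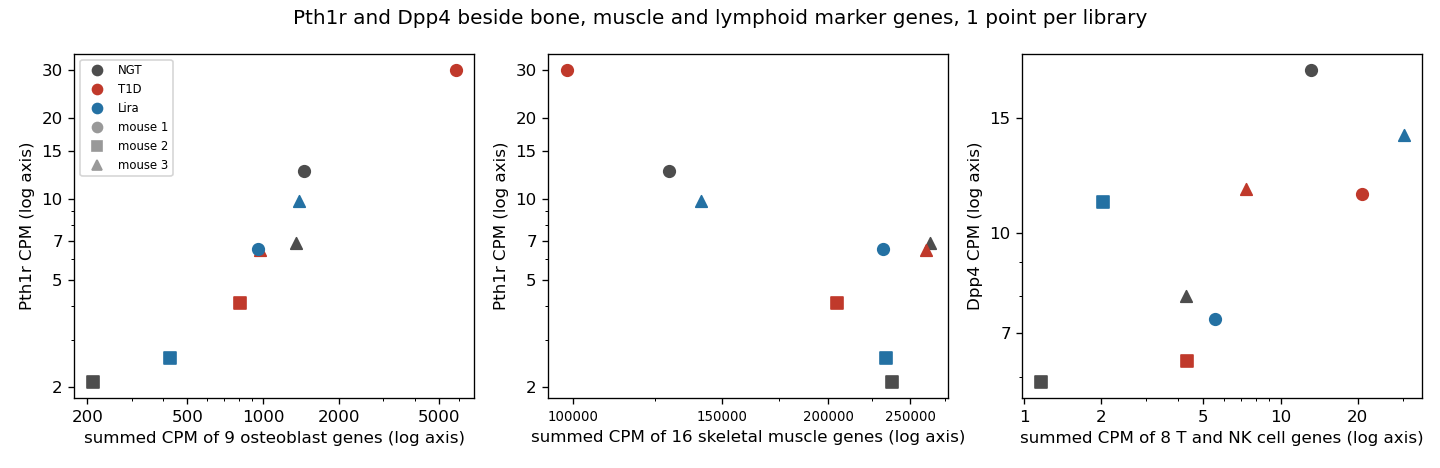
CPM of *Pth1r* against the summed CPM of 9 osteoblast markers and of 16 skeletal muscle markers, and CPM of *Dpp4* against the summed CPM of 8 T and NK cell markers, on logarithmic axes with 1 point per library. T1D mouse 1 has the highest *Pth1r* (30.1 CPM), the highest osteoblast sum (5836 CPM) and the lowest muscle sum (98300 CPM).

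*Pthlh*, the local ligand of the receptor, was at 1.90, 0.387 and 0.396 CPM in NGT mice, 2.17, 2.81 and 0.667 CPM in T1D mice and 0.857, 0.545 and 0.459 CPM in Lira mice. Its log2 fold change was 1.05 for T1D against NGT (unadjusted p = 0.197) and -1.60 for Lira against T1D mice (unadjusted p = 0.0696 in edgeR's quasi-likelihood test), and the groups overlapped. Of 14 genes known to respond to parathyroid hormone, 9 were tested and 0 passed the test. In T1D against NGT mice 7 were higher and 2 lower (median log2 fold change 0.78, against 0.02 over all tested genes), and 3 had an unadjusted p under 0.05, namely *Mmp13*, *Fos* and *Nr4a3*, where 3.95% of all genes had this. The 3 genes with the highest CPM were *Nr4a1*, *Mmp13* and *Igf1*. *Nr4a1* was at 168 ± 53.0 CPM (SD, n = 3) in NGT and 131 ± 47.2 CPM (SD, n = 3) in T1D mice, *Mmp13*, a collagenase of bone, at means of 11.1 and 103 CPM (log2 fold change 3.21, unadjusted p = 0.0483 in edgeR's test) and *Igf1* at 21.3 ± 10.4 and 43.2 ± 39.0 CPM, with unadjusted p-values of 0.379 for *Nr4a1* and 0.149 for *Igf1* (edgeR). *Fos* (log2 fold change 1.16) and *Nr4a3* (-1.67) were named after their values were seen. In Lira against T1D mice 2 were higher and 7 lower (median -0.47, against 0.04), and *Igf1* alone had an unadjusted p under 0.05 (log2 fold change -1.60), where 3.33% of all genes had this. The list does not state in which direction each gene responds, so counts of higher and lower genes in it do not measure a response to the hormone.

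The calcium-sensing receptor *Casr* and the vitamin D receptor *Vdr*, which belong to the same hormonal control of calcium, had groups that overlapped. *Casr* was at 40.4 ± 21.5 CPM (SD, n = 3) in NGT, 19.4 ± 16.6 CPM (SD, n = 3) in T1D and 24.5 ± 1.01 CPM (SD, n = 3) in Lira mice (log2 fold change -1.06 for T1D against NGT mice, unadjusted p = 0.114 in edgeR's test). *Vdr* was at 2.61 ± 2.15, 5.78 ± 4.09 and 5.59 ± 5.02 CPM in the same order (log2 fold change 1.14, unadjusted p = 0.291 in edgeR's test). *Cyp27b1*, the enzyme that activates vitamin D, had at most 3 counts in a library, and *Cyp24a1* was not analysed here. Of the other class B receptors, *Crhr2*, which binds urocortins, was at a level of 14.3 FPKM on average and *Sctr*, the secretin receptor, at 5.06 FPKM, followed by *Vipr2* (0.719 FPKM), *Adcyap1r1* (0.514 FPKM) and *Vipr1* (0.358 FPKM). *Gipr*, at 0.320 FPKM, was above *Vipr1* in T1D mice 1 and 3. *Pth2r* was counted in 6 libraries with at most 3.05 counts and *Ghrhr* in 1 library, and *Crhr1* was not analysed here. Of the 5 tested, 0 had an unadjusted p under 0.05 in any comparison, the lowest in T1D against NGT mice being that of *Sctr* (log2 fold change -0.99, unadjusted p = 0.0646 in edgeR's test).

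Genes of the route behind these receptors were present in all groups. Of 36 symbols listed, mainly for G proteins, adenylyl cyclases, protein kinase A subunits, phosphodiesterases, arrestins and receptor kinases, 33 were tested. By CPM the 3 highest were *Gnas*, *Pde4d* and *Prkar2a*. *Gnas*, the stimulatory G protein subunit, was at 1277 ± 204 CPM (SD, n = 3) in NGT, 1412 ± 180 CPM (SD, n = 3) in T1D and 1277 ± 182 CPM (SD, n = 3) in Lira mice. The phosphodiesterase *Pde4d* averaged 332 CPM and the kinase subunit *Prkar2a* 214 CPM. In T1D against NGT mice 19 genes were higher and 14 lower (median log2 fold change 0.12), and in Lira against T1D mice 18 were higher and 15 lower (0.05). DEGs numbered 0 of 33 in each comparison (edgeR's quasi-likelihood test), and an unadjusted p under 0.05 was reached by *Pde4a* in T1D against NGT mice (log2 fold change -1.11, unadjusted p = 0.0461 in edgeR, named after its value was seen) and by 0 genes in Lira against T1D mice, against 3.95% and 3.33% of all genes.

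The other tested members were closest to genes of different kinds. For *Calcrl* these were *Fzd7* (r = 0.905), *Gpx4* (r = 0.899) and *Vwa1* (r = 0.895), for *Gipr* the matrix genes *Fbln1* and *Efemp1* (r = 0.916 each) after *Sgce* (r = 0.931), for *Dpp4* *Ppp1r35* (r = 0.912), *Slc28a2* (r = 0.904) and *Mfhas1* (r = 0.891), and for *Calcr* *Tmx3* (r = 0.932), *Aup1* (r = 0.877) and *Tiprl* (r = 0.870). Each is the Pearson r of log2 CPM over 9 libraries.

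**Figure D5:**
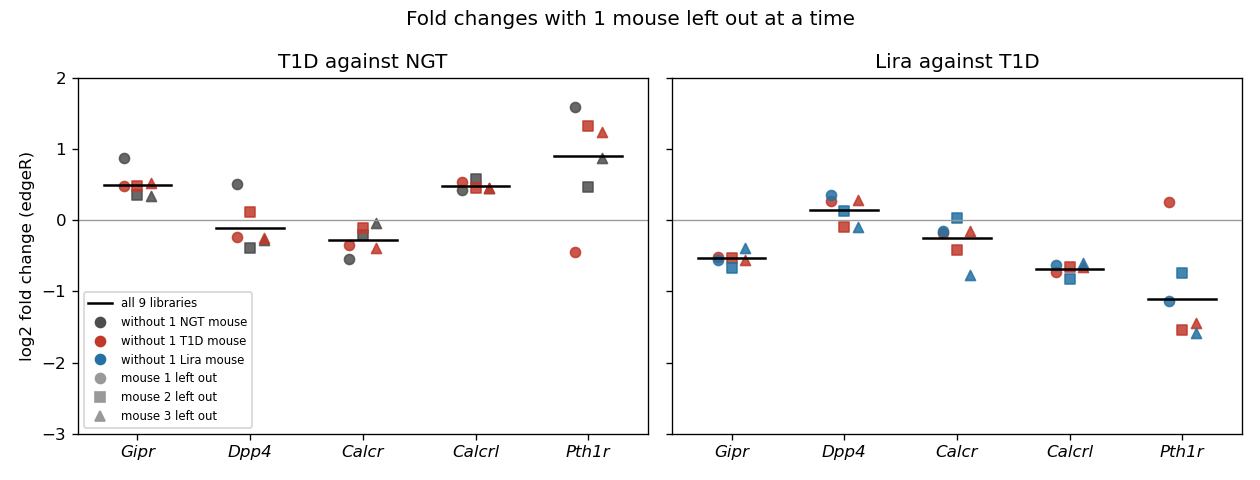
Log2 fold change of the 5 tested genes (edgeR, vertical axis) with 1 mouse left out at a time, for T1D against NGT mice on the left and Lira against T1D mice on the right, the black line marking the value with all 9 libraries. *Calcrl* and *Gipr* keep their direction in each of these fits, and *Pth1r* turns without T1D mouse 1.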

How the data were processed

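RNA was extracted from tibias with TRIzol, enriched with oligo(dT) and sequenced as DNA nanospheres. The authors aligned clean reads to the mouse genome (mm9 by the submitters' processing notes) and deposited estimated counts per gene, which are not normalized, beside FPKM values, which they scaled for length and sequencing total. The aligner, counter and strand setting are not given in the sources used here. Of the counts, 30.2% are not whole, and they were rounded. Group means by the authors were not used.

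Tested genes (13960 of 18272) had 10 or more counts in 3 or more of 9 libraries. Counts were analysed with edgeR 4.0.16 in R 4.3.3 (TMM, glmQLFit and glmQLFTest, 3 group means over all 9 libraries, Benjamini-Hochberg adjustment over all tested genes), in place of the one-way analysis of variance named in the paper. A DEG needed a fold change over 2 and an adjusted p-value under 0.05. CPM is the count per 1e6 of a library's TMM-scaled tested total. Replicates are separate mice. Single values were compared by two-sided exact permutation over mice. The replicate numbers come from the labels. Nothing says that same-numbered mice belong together. Same-numbered NGT and T1D mice correlated in their deviations from group means at 0.283 to 0.647 (unlike numbers -0.697 to 0.0668). For Lira and T1D mice this was -0.244 to 0.615 (unlike numbers -0.698 to 0.412), and for Lira and NGT mice -0.173 to 0.727 (unlike numbers -0.777 to 0.78). These correlations come from the same expression values and cannot show that mice were paired. Differences by mouse number and block fits are therefore given beside the main tests, which take the mice as unpaired. The fits were tested on simulated data.

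The members and gene lists were chosen with earlier results of these data known. Named genes were all members, all ligand, RAMP, class B receptor and calcium-sensing genes, at most the 3 most abundant tested genes of the other lists, and for each tested member the 3 genes of highest Pearson r (at least 5 CPM on average, log2 CPM with a prior count of 2). Others are marked as named after their values were seen or as outside the naming rule. Promoter windows were found in the RefSeq table for 7 of 8 members. Promoter coordinates are those of GRCm38.p6. The genes' own coordinates in the authors' build, mm9, are not given. Alternatives were DESeq2 1.42.0, limma 3.58.1 on log2(CPM + 1), library size scaling, no count filter, 2-group fits, the replicate block, no fold threshold, FPKM and leaving out each mouse.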

Additional observations from a re-analysis of the deposited data

How the results depend on the processing

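DEGs numbered 0 in each of 14 alternatives for T1D against NGT and for Lira against NGT mice, and in 13 of 14 for Lira against T1D mice, where DESeq2 called 1 gene, which is not a member (the cause was not tested). With the replicate block, 0 DEGs were called in each comparison and no member's call changed, also in the block with only the 2 groups compared, which was chosen after seeing the data. *Calcrl* kept its direction in all 15 alternatives of each comparison. Its log2 fold change ranged from 0.43 to 0.58 in T1D against NGT mice (adjusted p from 0.26 to 1.0 over the edgeR, DESeq2 and limma fits) and from -0.83 to -0.60 in Lira against T1D mice (adjusted p from 0.525 to 1.0), and with 1 mouse left out from -0.34 to -0.099 in Lira against NGT mice. *Gipr* kept its direction in these 2 comparisons, though on log2(FPKM + 1) its differences shrank to 0.13 and -0.16, as a pseudocount of 1 outweighs a level under 1 FPKM. With 1 mouse left out, log2 fold changes ranged for *Dpp4* from -0.39 to 0.51 (T1D against NGT), -0.094 to 0.36 (Lira against T1D) and -0.25 to 0.65 (Lira against NGT), for *Pth1r* from -0.45 to 1.60, -1.59 to 0.25 and -0.67 to 0.49, for *Calcr* from -0.54 to -0.038, -0.77 to 0.036 and -1.04 to -0.24, and for *Gipr* from 0.34 to 0.88 (T1D against NGT) and from -0.20 to 0.35 (Lira against NGT). Near 0, Lira against NGT also turned for *Gipr* to 0.0037 with limma and 0.0055 with the block of the 2 groups, for *Dpp4* to -0.046 with library size scaling and for *Pth1r* to 0.049 with the block. Depth limits *Glp1r*, *Gcgr*, *Glp2r* and *Calcr*, which had at most 16 counts in a library.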
